A study of Solanum lycopersicum with 6 samples.

Results

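The genes described here are 145 members of one co-expression module of tomato, named royalblue by the study, that are neither on its list of exodermal trajectory genes nor among the suberin genes and regulators it names. The module was built from other transcriptome datasets than the libraries described here and lists 180 loci with a description each. Of these, 28 stood on the trajectory list, 6 more were named suberin genes or regulators, and 1 locus was left out by the rule that defined the set. A count table of 34688 gene models held 129 of the 145, and the other 16 were not analysed here. The trajectory list had itself been cleared of genes induced by protoplasting, so module genes of that kind may remain among the 145.

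The libraries came from wild-type seedlings of Solanum lycopersicum cv. M82, 7 days after sowing. Root tips of about 3 cm, 50 to 100 to a sample, were either digested for 2 h at 25 °C in cellulases, Macerozyme and Pectolyase in mannitol, which frees cells from their walls (protoplasted roots), or left without digestion (whole roots), with 3 libraries in each group. The labels name no mock incubation of the whole roots, so enzymes, osmoticum and incubation time cannot be told apart. The libraries held 5198513 to 5666102 estimated counts from protoplasted roots and 5662566 to 5790082 from whole roots. Each transcript was read near its 3′ end. Values are normalized counts scaled to library size (CPM, with edgeR's TMM factors) and were not divided by transcript length. Fold changes compare levels within a gene, while shares, summed CPM and the choice of named members use levels across genes.

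The exodermis is the outermost cortical layer of the root, lying under the epidermis. Its cells can deposit suberin, a polymer of long-chain fatty acids, glycerol and phenolic compounds laid down against the wall, which restricts the passage of water and solutes. Making it takes fatty acid elongation, oxidation and acyl transfer, phenylpropanoid enzymes, export across the plasma membrane and wall enzymes, and the module lists descriptions of all these kinds beside kinases, transcription factors and housekeeping proteins.

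Protoplasted roots held less of most members that could be tested. Of 110 members tested, 85 were lower (adjusted p under 0.05), 3 were higher and 22 were not called, where 18.7% of all 15966 genes tested were lower and 17% were higher. All p-values are from edgeR's quasi-likelihood test, adjusted by the Benjamini-Hochberg method over all genes tested, and fold changes are protoplasted over whole roots. With a log2 fold change under -2 as a further limit, 74 members were lower, against 9.78% of all genes. No member was higher by a log2 fold change over 2 in the same test, nor with DESeq2. Limma-voom called 1 such member, the glycosyltransferase Solyc09g092480, which edgeR called too without whole-root replicate 1. At any fold, 4 members were higher in the edgeR test of all libraries at an unadjusted p under 0.05. The median log2 fold change was -3.71 over the 110 members and 0.02 over all genes tested.

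The fold changes were spread widely. In 14 members the log2 fold change was under -6, in 36 between -6 and -4, in 24 between -4 and -2 and in 12 between -2 and -1, while 21 lay between -1 and 1 and 3 were above 1. All 3 protoplasted libraries were below all 3 whole-root libraries in 93 members, against 25.6% of all genes tested, and above them in 6, against 25.1%. Passing the filter on low counts took 1.77 CPM in 3 libraries, which 108 of the 110 members met in all whole-root libraries and 50 in all protoplasted ones, so a member that passed on its whole-root level alone had to be lower. Among those 50 members, 26 were lower, 3 were higher and 21 were not called. The share of all genes under this exact limit was not computed. Under a like one, 10 counts in every library, 15.9% of 12552 genes were lower and 14.6% higher. The members' median under that limit, given at the end, was less negative than over the 110.

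**Figure D1:**
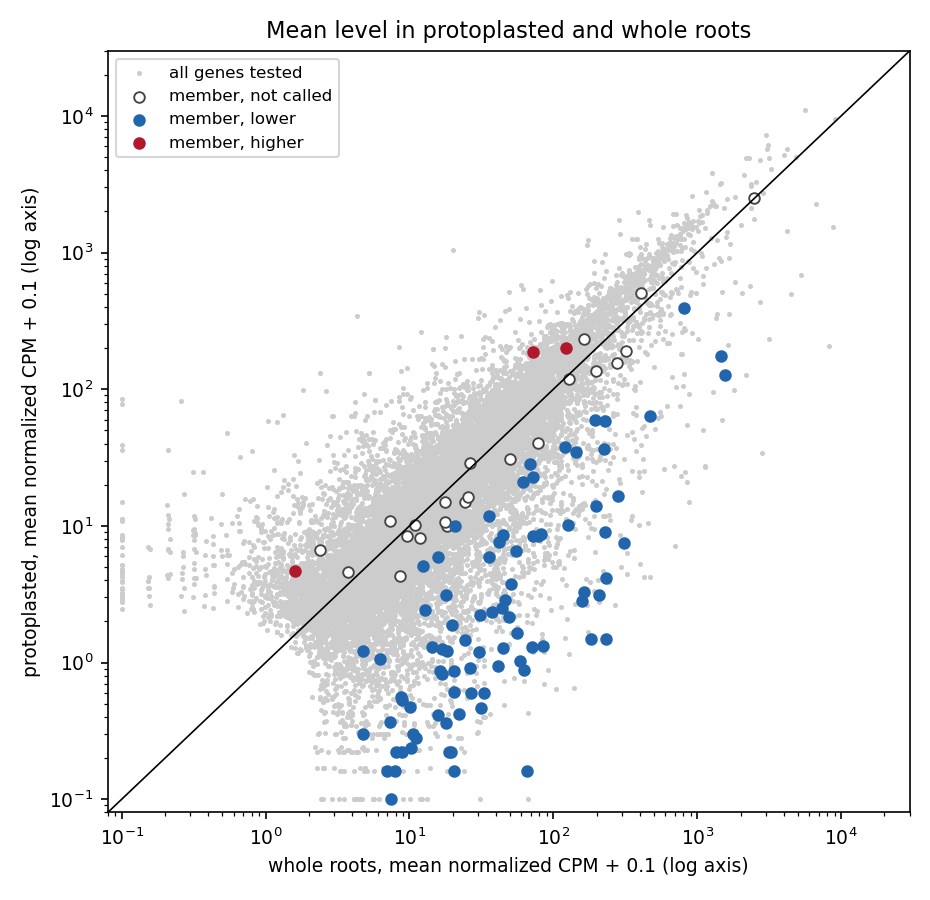
Mean normalized CPM plus 0.1 in protoplasted roots (vertical, log axis) against whole roots (horizontal, log axis) for all 15966 genes tested (grey) and the 110 members tested, with the diagonal marking equal levels. The 85 lower members (blue) lie under the diagonal, the 22 members that were not called (open) lie along it and the 3 higher members (red) lie above it.

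In samples of many cells, fewer cells of a type and less RNA per cell cannot be told apart. The study's named suberin genes and regulators and its exodermal trajectory list were measured in the same libraries. Of the named genes, 6 in the module are not on the trajectory list. The genes that the lists share were not counted, so their values are not separate readouts of the exodermis. The 17 named suberin genes and regulators took 0.00137% to 0.00639% of the counts in protoplasted libraries and 0.183% to 0.334% in whole-root libraries, and all 15 that were tested were lower, with a median log2 fold change of -6.07. Of the trajectory genes, 48 of 49 tested were lower, with a median of -5.71, and their share was 0.0406% to 0.103% in protoplasted against 1.03% to 2.60% in whole-root libraries. The members' own share was 0.474%, 0.530% and 0.618% in protoplasted and 1.40%, 1.32% and 1.72% in whole-root libraries. The part that the loss of exodermal transcripts has in the members' values was not tested, and no list of markers for the other root cell types could be used.

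The members fell into 14 groups by their descriptions, and the group medians ran from -5.93 to -0.23. Every tested member was lower in 4 groups, namely the lipid transfer proteins, the lipid enzymes, the cytochromes P450 with other oxygenases, and the transporters. Of the 110 members tested, 35 reached the filter's 1.77 CPM in no protoplasted library, so they had to be lower. Group counts and medians include such members, and whether the groups differ was not tested. The kinases and signalling proteins and the RNA, chromatin and nuclear transport proteins had the medians closest to 0.

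**Figure D2:**
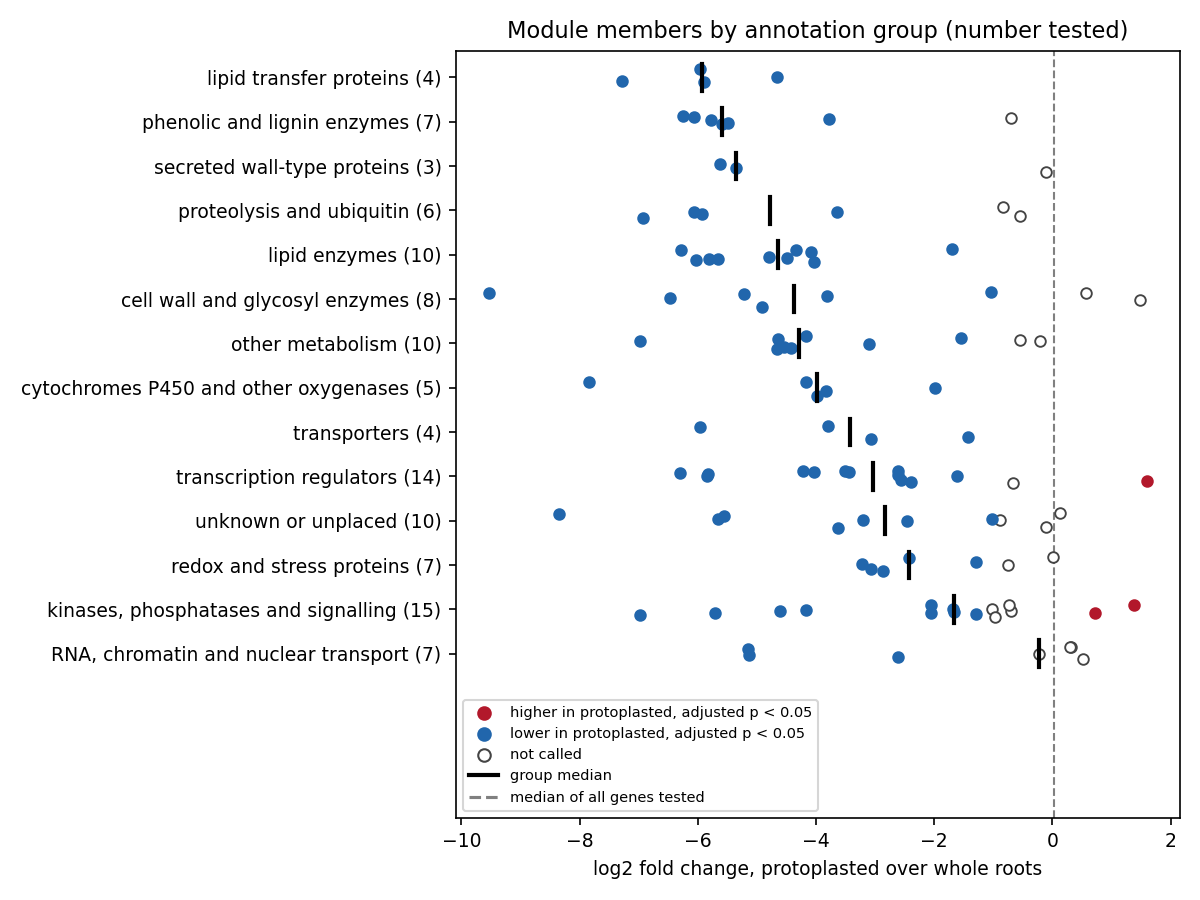
Log2 fold change, protoplasted over whole roots, of each of the 110 tested members (points), with 1 row for each of the 14 annotation groups and the number tested in parentheses. Black bars are group medians, which run from -5.93 in the lipid transfer proteins to -0.23 in the RNA, chromatin and nuclear transport group, and the dashed line is the median of all genes tested, 0.02.

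All 4 lipid transfer proteins that were tested were lower, with a median log2 fold change of -5.93. Proteins of this family are small, secreted and able to bind lipids, and some carry monomers to the cuticle or the suberin layer. Solyc09g082300 had 0.209, 0 and 3.98 CPM in protoplasted roots, against 63.8, 251 and 381 CPM in whole roots (log2 fold change -7.28, standard error 1.09, adjusted p = 0.0018). Its neighbour in the locus numbering, Solyc09g082290, had 0, 0.411 and 0.543 CPM in protoplasted roots, against 8.47, 13.8 and 43.4 CPM in whole roots (log2 fold change -5.97, standard error 0.90, adjusted p = 0.0018). In both loci the protoplasted libraries stayed under 4 CPM and the groups did not overlap. Solyc06g054060 had 0.209, 0.206 and 2.35 CPM in protoplasted roots, against 17.9, 43.5 and 115 CPM in whole roots (log2 fold change -5.89, standard error 0.94, adjusted p = 0.0023), and the nearby Solyc06g054030 had a log2 fold change of -4.66. Much of the protoplasted signal lay in replicate 3, and without it the log2 fold change was -10.87 in Solyc09g082300 and -8.03 in Solyc06g054060, fitted values that then rest on 1 and 2 protoplasted counts and depend on the prior count. Without it that of Solyc09g082290 was -6.61, with 2 protoplasted counts left. Whole-root replicate 3 was the highest library of Solyc06g054060, Solyc06g054030 and Solyc09g082290, and without it their log2 fold changes were -4.96, -4.0 and -5.00.

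All 10 tested lipid enzymes were lower, 9 of them past a log2 fold change of -2. The glycerol-3-phosphate acyltransferase Solyc07g056320, of a family that joins acyl chains to glycerol for cutin and suberin, had the lowest log2 fold change of the group. Its level was 0.835, 0.411 and 1.09 CPM in protoplasted roots, against 32.8, 74.6 and 80.9 CPM in whole roots (log2 fold change -6.28, standard error 0.51, adjusted p = 0.00026). The lipoxygenase Solyc01g099160, which oxygenates polyunsaturated fatty acids, had 1.25, 30.4 and 17.9 CPM in protoplasted roots, against 195, 333 and 317 CPM in whole roots (log2 fold change -4.09, standard error 0.81, adjusted p = 0.0056). Its protoplasted values differed more among themselves, with replicate 1 the lowest and replicate 2 the highest. The log2 fold change was -3.56 without protoplasted replicate 1 and -4.87 without protoplasted replicate 2. In neither gene did the groups overlap.

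The 3-ketoacyl-CoA synthase Solyc08g067260, which begins each round of fatty acid elongation, had 1.67, 1.23 and 0.362 CPM in protoplasted roots, against 43.3, 11.0 and 36.5 CPM in whole roots (log2 fold change -4.80, standard error 0.66, adjusted p = 0.0013). The very-long-chain 3-hydroxyacyl-CoA dehydratase Solyc04g014370, a later enzyme of the same cycle, changed least in the group. It had 61.1, 63.1 and 55.1 CPM in protoplasted roots, against 129, 173 and 279 CPM in whole roots (log2 fold change -1.70, standard error 0.30, adjusted p = 0.0033). Protoplasted libraries lay below whole-root libraries in both, by a fitted 27.8-fold for the synthase and 3.24-fold for the dehydratase. A glycerol-3-phosphate dehydrogenase, Solyc04g016330, which supplies the glycerol backbone, had a log2 fold change of -4.03, and the GDSL esterase/lipase Solyc11g011110 had one of -4.48. The GDSL gene stood at 42.0 CPM in whole-root replicate 1 and at 4.0 and 3.8 CPM in the other whole-root libraries, and without whole-root replicate 1 it lay at -2.40 on the log2 scale. Its call was lost without protoplasted replicate 2 (adjusted p = 0.073) and with limma-voom (adjusted p = 0.125). An acyl-acyl-carrier-protein hydrolase, Solyc03g097390, which releases fatty acids in the plastid, held 3 counts over the protoplasted libraries against 197 in whole roots, a level 55.2-fold lower in protoplasted roots (95% counting interval 18.6 to 270.1-fold), with every protoplasted count in replicate 3 (fitted log2 fold change -5.67, and -8.95 without that library). The alpha/beta fold protein Solyc02g085180, of a superfamily with many lipases and esterases, had 1.67, 1.03 and 5.43 CPM in protoplasted roots, against 127, 156 and 188 CPM in whole roots (log2 fold change -5.82, standard error 0.53, adjusted p = 0.00035), with all protoplasted libraries far under the whole-root ones, and -6.88 without protoplasted replicate 3.

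Of 7 phenolic and lignin enzymes tested, 6 were lower and 1 was not called. Laccases and class III peroxidases couple phenolic monomers in the wall by oxidation. The peroxidase Solyc06g050440 had 0.417, 2.47 and 6.16 CPM in protoplasted roots, against 126, 153 and 346 CPM in whole roots (log2 fold change -6.07, standard error 0.75, adjusted p = 0.00087). Laccase Solyc05g052370 had 0.209, 1.44 and 10.5 CPM in protoplasted roots, against 153, 176 and 362 CPM in whole roots (log2 fold change -5.78, standard error 0.94, adjusted p = 0.0024), and laccase Solyc05g052360 had 0, 0 and 1.09 CPM in protoplasted roots, against 43.3, 34.0 and 17.1 CPM in whole roots (log2 fold change -6.26, standard error 0.81, adjusted p = 0.001). These loci are neighbours in the numbering, as is Solyc05g052340, which had a log2 fold change of -5.48, and -6.99 with 1 protoplasted count left when replicate 3 was left out. None of the laccases reached 11 CPM in a protoplasted library, and replicate 3 was the highest protoplasted library in the 3 neighbouring ones. Without protoplasted replicate 3 the log2 fold changes were -7.18 for the peroxidase and -8.12 and -10.47 for the laccases Solyc05g052370 and Solyc05g052360, the last a fitted value with 0 protoplasted counts left that depends on the prior count. A further laccase, Solyc06g050530, had 3 counts over the protoplasted libraries against 195 in whole roots, a level 54.7-fold lower in protoplasted roots (95% counting interval 18.4 to 267-fold). Of those whole-root counts 154 lay in replicate 1, and the fitted log2 fold change of -5.58 became -3.98 without it and -6.51 without protoplasted replicate 1, with 1 protoplasted count left. Cinnamoyl-CoA reductase Solyc03g097170, which starts the branch to monolignols, was lower with a log2 fold change of -3.77. The member described as ELI3, Solyc11g011340, had 21.9, 21.6 and 48.5 CPM in protoplasted roots, against 53.4, 52.8 and 43.7 CPM in whole roots (log2 fold change -0.70, standard error 0.33, adjusted p = 0.13) and was the member not called. Each of the 6 libraries gave it a fractional count, a sign of reads that fit other transcripts too, and with the replicate number as a block its adjusted p was 0.047. Without protoplasted replicate 3 it was lower (log2 fold change -1.24, adjusted p = 0.0092).

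**Figure D3:**
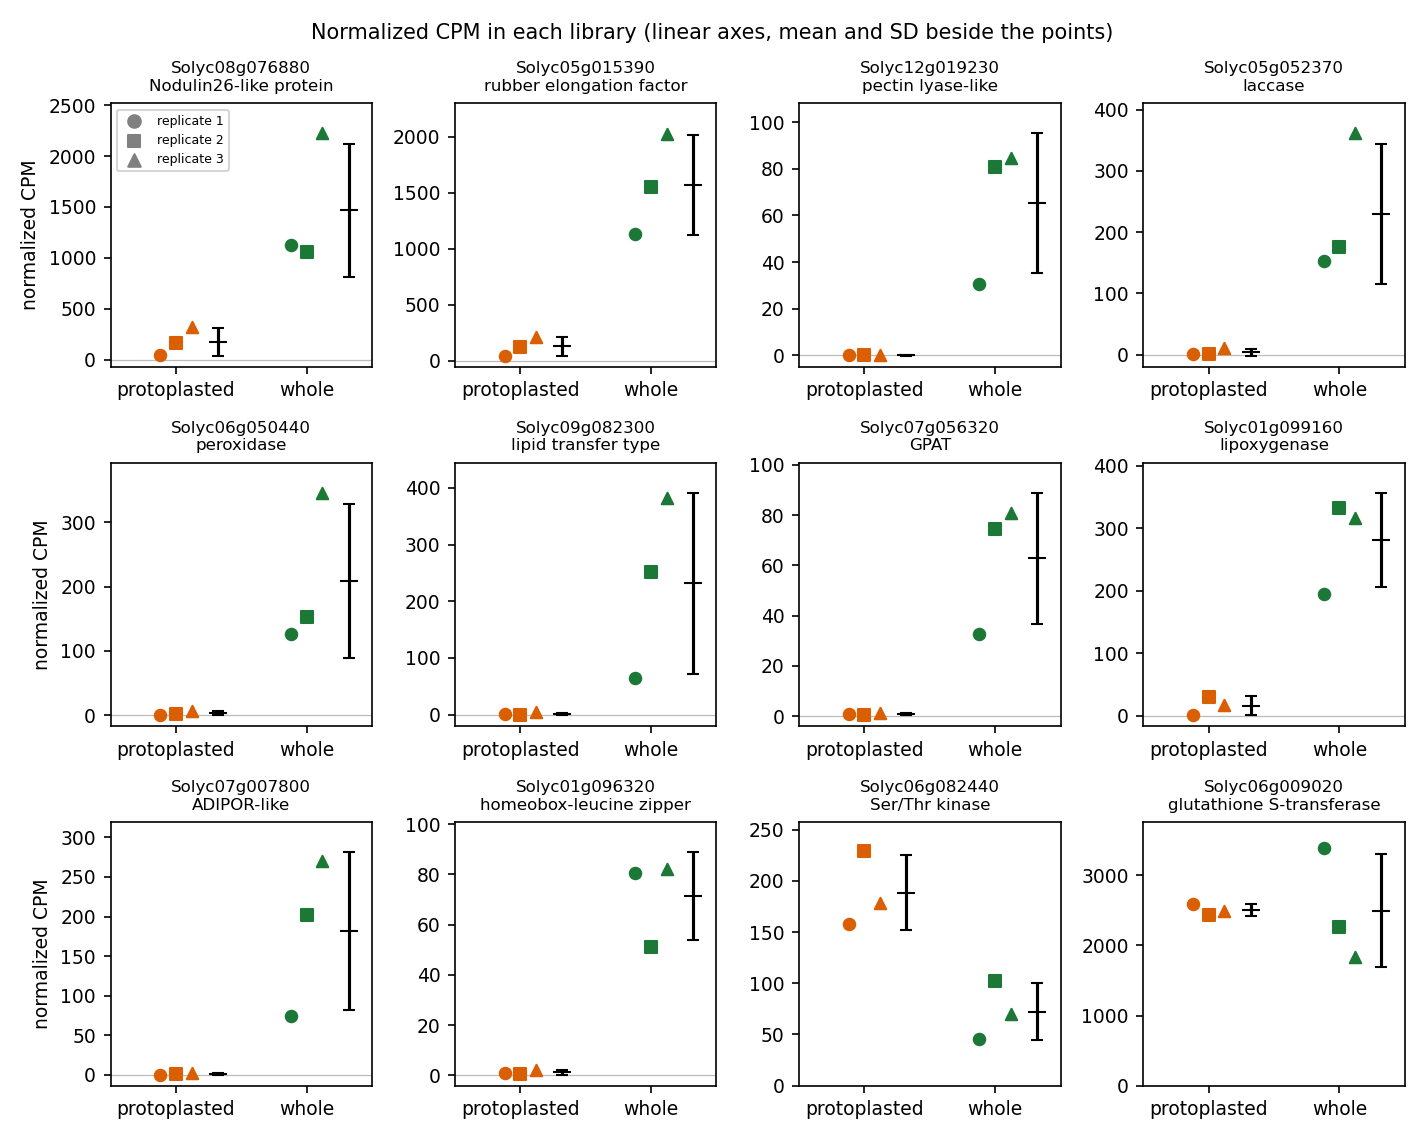
Normalized CPM of 12 members in each protoplasted (orange) and whole-root (green) library, on linear axes with a scale for each gene, symbols marking the replicate number and bars the mean and SD of 3 libraries. In 10 of the genes every protoplasted library lies below every whole-root library, in the kinase Solyc06g082440 the order is the other way round, and in the glutathione S-transferase Solyc06g009020 the groups overlap.

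The cell wall and glycosyl enzymes held the member with the lowest log2 fold change of the set, and 6 of 8 tested were lower. This was Solyc12g019230, described as pectin lyase-like, a fold shared by enzymes that cut pectin. It had 0, 0 and 0.181 CPM in protoplasted roots, against 30.7, 80.6 and 84.5 CPM in whole roots, or 1 count over the protoplasted libraries against 1165 counts in whole roots, a level 979.7-fold lower in protoplasted roots (95% counting interval 175 to 38728-fold). The fitted log2 fold change of -9.53 depends on the prior count used for so few reads, and the adjusted p was 0.00026. The single count lay in replicate 3, without which the fitted value was -11.51 with no protoplasted count left. Solyc01g094970, of the same description, also held 1 count over the protoplasted libraries, against 142 in whole roots, a level 119-fold lower in protoplasted roots (95% counting interval 21.1 to 4749-fold), with every protoplasted count in replicate 3 (fitted log2 fold change -6.48, and -8.46 without that library), and its counts were not whole in 4 libraries. Pectinesterase Solyc04g080530, which removes methyl groups from pectin, had a log2 fold change of -5.21, and -5.96 without protoplasted replicate 3. The Trichome birefringence-like protein Solyc02g089690, of a family that acetylates wall polysaccharides, had 6.26, 12.8 and 10.9 CPM in protoplasted roots, against 23.2, 19.2 and 19.4 CPM in whole roots (log2 fold change -1.04, standard error 0.31, adjusted p = 0.03). Its groups did not overlap, but the call was lost in each fit without protoplasted replicate 1 or 3 or any one whole-root replicate, where the adjusted p was 0.052 to 0.070. The mannosyltransferase Solyc01g089900 and the glycosyltransferase Solyc09g092480 were not called.

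The secreted wall-type proteins held 3 tested members, of which 2 were lower. The alpha-amylase inhibitor Solyc03g005210 had 0.626, 2.26 and 19.4 CPM in protoplasted roots, against 121, 302 and 502 CPM in whole roots (log2 fold change -5.35, standard error 1.05, adjusted p = 0.0054). A glycine-rich protein, Solyc01g060260, had 0.417, 0 and 1.09 CPM in protoplasted roots, against 46.7, 14.5 and 18.7 CPM in whole roots (log2 fold change -5.61, standard error 0.78, adjusted p = 0.0013). Without protoplasted replicate 3 their log2 fold changes were -7.74 and -6.90, the second with 2 protoplasted counts left, and without whole-root replicate 1 that of Solyc01g060260 was -4.93. Another glycine-rich protein, Solyc11g013100, had 144, 111 and 103 CPM in protoplasted roots, against 119, 144 and 122 CPM in whole roots (log2 fold change -0.10, standard error 0.21, adjusted p = 0.73), and its groups overlapped.

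All 5 tested cytochromes P450 and other oxygenases were lower. Cytochromes P450 insert oxygen into many substrates, among them the fatty acids of suberin, but the descriptions name no substrate here. Solyc07g062500 had 53.4, 54.9 and 66.1 CPM in protoplasted roots, against 220.2, 238 and 229.5 CPM in whole roots (log2 fold change -1.98, standard error 0.20, adjusted p = 0.00046), with little spread in either group. Solyc10g083690 had 3.55, 15.2 and 22.6 CPM in protoplasted roots, against 105, 237 and 248 CPM in whole roots (log2 fold change -3.82, standard error 0.62, adjusted p = 0.0023), and -4.41 on the log2 scale without protoplasted replicate 3. Counts of Solyc10g083690 were not whole in any of the 6 libraries, which leaves its level uncertain. The 2-oxoglutarate-dependent oxygenase Solyc01g105660 held 1 count over the protoplasted libraries against 361 in whole roots, a level 304-fold lower in protoplasted roots (95% counting interval 54.1 to 12023-fold), with every protoplasted count in replicate 3 (fitted log2 fold change -7.84, and -9.82 without that library). A further cytochrome P450, Solyc04g011940, had a log2 fold change of -4.16, and chlorophyllide a oxygenase Solyc11g012850, an enzyme of chlorophyll b synthesis, one of -3.99, or -4.73 without protoplasted replicate 2.

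All 4 tested transporters were lower. The Nodulin26-like intrinsic protein Solyc08g076880, of an aquaporin family that lets small uncharged solutes such as boric acid through membranes, had 47.4, 160.0 and 319.8 CPM in protoplasted roots, against 1126, 1056 and 2222 CPM in whole roots (log2 fold change -3.06, standard error 0.63, adjusted p = 0.0067). The lowest protoplasted library was replicate 1, without which the log2 fold change was -2.62, and the highest was replicate 3, without which it was -3.85. Without whole-root replicate 3 it was -2.63. A pleiotropic drug resistance ABC transporter, Solyc06g065670, of a family that exports lipids and secondary compounds, had 0.209, 0.206 and 0.362 CPM in protoplasted roots, against 25.4, 16.3 and 11.6 CPM in whole roots (log2 fold change -5.96, standard error 0.53, adjusted p = 0.00033). A major facilitator protein, Solyc12g006050, had 0, 2.06 and 4.35 CPM in protoplasted roots, against 27.5, 24.7 and 39.6 CPM in whole roots (log2 fold change -3.79, standard error 0.73, adjusted p = 0.0051), and -4.89 without protoplasted replicate 3. In all these genes the groups did not overlap. A second ABC transporter, Solyc06g074940, had a smaller log2 fold change of -1.43, and its call was lost without protoplasted replicate 1 or 2 or whole-root replicate 2 or 3 (adjusted p of 0.074 to 0.096).

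Among other metabolic enzymes, 8 of 10 tested were lower. Solyc07g047850, described as a chlorophyll a-b binding protein, the antenna protein of photosystems, had 3.13, 7.20 and 16.7 CPM in protoplasted roots, against 135, 205 and 341 CPM in whole roots (log2 fold change -4.64, standard error 0.61, adjusted p = 0.0011), and -5.48 without protoplasted replicate 3. Pyruvate dehydrogenase kinase Solyc01g057210, which turns off the entry of pyruvate into mitochondrial respiration, had 16.7, 22.6 and 23.4 CPM in protoplasted roots, against 57.5, 59.6 and 66.2 CPM in whole roots (log2 fold change -1.55, standard error 0.22, adjusted p = 0.0014). The groups were apart in both, more narrowly in the kinase. An alcohol dehydrogenase, Solyc05g046180, held 2 counts over the protoplasted libraries against 345 in whole roots, a level 145-fold lower in protoplasted roots (95% counting interval 39.9 to 1203-fold), with every protoplasted count in replicate 3 (fitted log2 fold change -6.98, and -9.75 without that library), and the fitted value was -6.38 without whole-root replicate 3. A strictosidine synthase-like member, Solyc11g071800, had 6.47, 6.38 and 12.3 CPM in protoplasted roots, against 42.5, 63.5 and 111 CPM in whole roots (log2 fold change -3.10, standard error 0.43, adjusted p = 0.0013). The nudix hydrolase Solyc05g016690, of a family that cleaves nucleoside diphosphate compounds, held 3 counts over the protoplasted libraries against 84 in whole roots, a level 23.5-fold lower in protoplasted roots (95% counting interval 7.79 to 116-fold), with a fitted log2 fold change of -4.42 that was -5.33 without protoplasted replicate 2, where 1 count was left. dCTP pyrophosphatase Solyc09g097930 and the glutamine amidotransferase-like Solyc01g108070 were not called, with log2 fold changes of -0.55 and -0.20.

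Transcription regulators formed one of the larger groups, with 12 lower, 1 higher and 1 not called of 14 tested. The homeobox-leucine zipper protein Solyc01g096320 had 1.04, 0.411 and 2.17 CPM in protoplasted roots, against 80.4, 51.0 and 82.3 CPM in whole roots (log2 fold change -5.82, standard error 0.47, adjusted p = 0.00026), and -6.62 without protoplasted replicate 3. Solyc06g073180, described as a CONSTANS interacting protein, had 29.0, 36.6 and 44.2 CPM in protoplasted roots, against 184, 218 and 273 CPM in whole roots (log2 fold change -2.62, standard error 0.26, adjusted p = 0.00044). Protoplasted libraries of both lay well under the whole-root range, and those of Solyc06g073180 kept more counts. The locus Solyc07g054840 is described as R2R3MYB transcription factor 41 but is not the locus that the study names SlMYB41. Solyc07g054840 held 1 count over the protoplasted libraries against 125 in whole roots, a level 105-fold lower in protoplasted roots (95% counting interval 18.5 to 4185-fold). Every protoplasted count lay in replicate 3 (fitted log2 fold change -6.30, and -8.28 without that library). A second MYB locus, Solyc04g056310, held 2 against 160, a level 67.3-fold lower in protoplasted roots (95% counting interval 18.3 to 560.3-fold), with every protoplasted count in replicate 3 (fitted log2 fold change -5.84, and -8.62 without that library). Of its whole-root counts 105 lay in replicate 1, and without that library the fitted value was -4.94. A further homeobox leucine zipper locus, Solyc03g082550, had a log2 fold change of -3.51, the nuclear transcription factor Y protein Solyc04g054150 one of -4.22 and the zinc finger protein Solyc05g006310 one of -3.44. Without protoplasted replicate 3 these were -4.50, -6.17 and -4.27, the second with 1 protoplasted count left.

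Other MYB-type loci had smaller log2 fold changes and were lower too. Solyc10g084370 had a log2 fold change of -4.03, Solyc03g096350 one of -2.62 and Solyc05g055940 one of -2.39. The AP2-like factor Solyc03g117720 had -2.56 on the same scale and the LOB domain protein Solyc04g077990 -1.61, whose call was lost without protoplasted replicate 2 (adjusted p = 0.076) and whose log2 fold change was -2.20 without protoplasted replicate 3. The WRKY factor Solyc02g093050 had 13.4, 19.3 and 15.6 CPM in protoplasted roots, against 26.4, 26.1 and 24.2 CPM in whole roots (log2 fold change -0.67, standard error 0.24, adjusted p = 0.056). It was not called although its groups did not overlap, and with the replicate number as a block its adjusted p was 0.025. It was also lower with DESeq2, limma-voom, RLE size factors, library size in place of TMM and a minimum of 10 counts in every library (adjusted p of 0.029 to 0.049).

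One ethylene-responsive transcription factor went the other way. Solyc04g071770, of the AP2/ERF family that acts downstream of ethylene and many stresses, had 3.34, 3.70 and 6.70 CPM in protoplasted roots, against 0.799, 1.83 and 1.90 CPM in whole roots (log2 fold change 1.60, standard error 0.51, adjusted p = 0.04). Its level was low in every library, and the groups did not overlap. The call was lost in each of the 6 fits that left out 1 library, with an adjusted p of 0.056 to 0.160, and also with library size in place of TMM (adjusted p = 0.058).

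Kinases, phosphatases and signalling proteins held calls in both directions, with 9 lower, 2 higher and 4 not called of 15 tested. Of the 9, the receptor-kinase Solyc03g006100 lost its call without any one protoplasted replicate or whole-root replicate 3 (adjusted p of 0.070 to 0.222), and with limma-voom (0.134). The ELMO domain protein Solyc10g037890 lost its call in every fit that left out 1 library except that without protoplasted replicate 3 (adjusted p of 0.053 to 0.067). The non-specific serine/threonine protein kinase Solyc06g082440 was higher, with 157, 229 and 179 CPM in protoplasted roots, against 45.4, 102 and 70.0 CPM in whole roots (log2 fold change 1.38, standard error 0.31, adjusted p = 0.01). Every protoplasted library lay above every whole-root library, and the call was lost without protoplasted replicate 2 (log2 fold change 1.19, adjusted p = 0.053). The GRAM domain protein Solyc08g078510, described as ABA-responsive-like, was also higher, with 156, 211 and 238 CPM in protoplasted roots, against 137, 97.8 and 131 CPM in whole roots (log2 fold change 0.73, standard error 0.24, adjusted p = 0.043). Its groups were apart by less, and the call was lost without protoplasted replicate 2 or 3 or whole-root replicate 2 or 3, with an adjusted p of 0.069 to 0.156, and in 4 other fits. These were library size in place of TMM (adjusted p = 0.119), RLE size factors (0.052), upper-quartile factors (0.051) and a minimum of 10 counts in every library (0.075).

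In the same group the ADIPOR-like receptor Solyc07g007800, of a family of proteins that cross the membrane several times, had the lowest log2 fold change. It had 0.209, 1.44 and 2.54 CPM in protoplasted roots, against 73.7, 202 and 269.6 CPM in whole roots (log2 fold change -6.97, standard error 0.72, adjusted p = 0.00051), and -7.77 without protoplasted replicate 3. A second receptor of this description, Solyc12g009680, held 2 counts over the protoplasted libraries against 141 in whole roots, a level 59.3-fold lower in protoplasted roots (95% counting interval 16.1 to 494-fold), with every protoplasted count in replicate 3 (fitted log2 fold change -5.70, and -8.47 without that library). Of its whole-root counts 86 lay in replicate 3, and without that library the fitted value was -4.89. Cytokinin riboside phosphoribohydrolase Solyc04g081290, which activates cytokinins, had 2.09, 1.65 and 3.44 CPM in protoplasted roots, against 28.8, 50.6 and 52.7 CPM in whole roots (log2 fold change -4.18, standard error 0.39, adjusted p = 0.00035). Protein phosphatase 2C Solyc03g096670, of a family with negative regulators of abscisic acid signalling, had a log2 fold change of -2.05, and the kinase Solyc01g108280 one of -1.68.

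Of 6 tested members of proteolysis and ubiquitination, 4 were lower. The RING/U-box protein Solyc07g065810, of a class that contains ubiquitin ligases, held 2 counts over the protoplasted libraries against 333 in whole roots, a level 140.0-fold lower in protoplasted roots (95% counting interval 38.5 to 1161-fold), with every protoplasted count in replicate 3 (fitted log2 fold change -6.93, and -9.70 without that library). The F-box protein Solyc10g078410 had 0.417, 1.44 and 1.81 CPM in protoplasted roots, against 47.5, 87.9 and 119 CPM in whole roots (log2 fold change -6.07, standard error 0.52, adjusted p = 0.00029), whereas the next locus in the numbering, the transmembrane protein Solyc10g078420, had 8.77, 13.0 and 8.51 CPM in protoplasted roots, against 9.11, 10.3 and 13.1 CPM in whole roots (log2 fold change -0.11, standard error 0.31, adjusted p = 0.81). The F-box groups lay far apart and those of its neighbour overlapped. Metalloendoproteinase Solyc08g078550, of a class of matrix proteases, had 0, 0.411 and 1.09 CPM in protoplasted roots, against 11.3, 43.3 and 44.2 CPM in whole roots (log2 fold change -5.92, standard error 0.81, adjusted p = 0.0013), and -7.20 without protoplasted replicate 3, where 2 protoplasted counts were left. The RING/FYVE/PHD zinc finger protein Solyc05g008390 had 8.35, 10.9 and 10.7 CPM in protoplasted roots, against 55.0, 133 and 189 CPM in whole roots (log2 fold change -3.65, standard error 0.45, adjusted p = 0.00083). Both were apart from their whole-root libraries, and Solyc05g008390 kept between 8.35 and 10.9 CPM in protoplasted roots. The ubiquitin-like protein Solyc01g087620 had 124, 136 and 204 CPM in protoplasted roots, against 218, 227 and 382 CPM in whole roots (log2 fold change -0.83, standard error 0.30, adjusted p = 0.057), and the PPPDE thiol peptidase Solyc09g061310, of a class that removes ubiquitin-like tags, had 125, 132 and 148 CPM in protoplasted roots, against 175, 216 and 199 CPM in whole roots (log2 fold change -0.54, standard error 0.19, adjusted p = 0.056). In both the groups did not overlap, and with the replicate number as a block both were lower (adjusted p = 0.0014 and 0.013). Both were lower too with DESeq2, library size in place of TMM and a minimum of 10 counts in every library (adjusted p of 0.024 to 0.044). Solyc01g087620 was also lower with genes of any count and without protoplasted replicate 3 or whole-root replicate 1, and Solyc09g061310 with RLE size factors and limma-voom.

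Redox and stress proteins included the glutathione S-transferase Solyc06g009020. Glutathione S-transferases join glutathione to reactive compounds. Solyc06g009020 had 2596, 2441 and 2484 CPM in protoplasted roots, against 3391, 2263 and 1829 CPM in whole roots (log2 fold change 0.01, standard error 0.25, adjusted p = 0.99), its groups overlapped, and the sign of the difference turned under other normalizations, reaching a log2 fold change of -0.17 with library size alone. It made up 50.1%, 43.1% and 39.2% of the members' summed CPM in protoplasted libraries and 26.7%, 17.8% and 10.8% in whole-root libraries. Without this gene the members summed to 2587, 3226 and 3854 CPM in protoplasted and 9286, 10453 and 15043 CPM in whole-root libraries.

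Of the 7 redox and stress members tested, 5 were lower, but 3 in the fit without protoplasted replicate 2. A second glutathione S-transferase, Solyc10g084400, had 33.0, 27.4 and 131 CPM in protoplasted roots, against 812, 243 and 348 CPM in whole roots (log2 fold change -2.87, standard error 0.68, adjusted p = 0.012). Whole-root replicate 1 was its highest library, and the log2 fold change was -2.21 without it and -4.0 without protoplasted replicate 3, while without protoplasted replicate 2 the adjusted p was 0.057. The DCC thiol-disulfide oxidoreductase Solyc03g116570 had 3.34, 7.20 and 15.4 CPM in protoplasted roots, against 48.6, 90.9 and 105 CPM in whole roots (log2 fold change -3.22, standard error 0.52, adjusted p = 0.0024), and -3.98 without protoplasted replicate 3. Spermine synthase Solyc03g007240, the last step of polyamine synthesis, had a log2 fold change of -1.29, and glutathione S-transferase Solyc07g056500 one of -3.08, or -3.73 without protoplasted replicate 3. The dehydrin Solyc02g062390, of a family that protects drying cells, was the single lower member whose groups overlapped. It had 0.835, 2.88 and 3.26 CPM in protoplasted roots, against 1.92, 19.7 and 16.8 CPM in whole roots (log2 fold change -2.43, standard error 0.80, adjusted p = 0.044), and its call was lost in every fit that left out 1 library except the fit without whole-root replicate 1 (adjusted p of 0.061 to 0.144 in the others), and with limma-voom (adjusted p = 0.219). The gamma interferon inducible lysosomal thiol reductase Solyc06g007340 had 147, 207 and 222 CPM in protoplasted roots, against 244, 298 and 424 CPM in whole roots (log2 fold change -0.75, standard error 0.27, adjusted p = 0.059) and was not called, but with the replicate number as a block it was lower (adjusted p = 0.0032). It was lower too with DESeq2, library size in place of TMM, a minimum of 10 counts in every library and without whole-root replicate 1 (adjusted p of 0.031 to 0.043).

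Proteins of RNA, chromatin and nuclear transport had 3 lower and 4 uncalled members of 7 tested. Histone H2A Solyc09g065755, a core protein of the nucleosome, had 502, 518 and 497 CPM in protoplasted roots, against 365, 406 and 449 CPM in whole roots (log2 fold change 0.31, standard error 0.18, adjusted p = 0.21). The small nuclear ribonucleoprotein Solyc10g081370, a part of the spliceosome, had 241, 246 and 213 CPM in protoplasted roots, against 200.4, 146 and 144 CPM in whole roots (log2 fold change 0.51, standard error 0.21, adjusted p = 0.089). Every protoplasted library of both lay above the whole-root libraries, neither passed the test, and with the replicate number as a block the ribonucleoprotein was higher (adjusted p = 0.019). Without whole-root replicate 1 the ribonucleoprotein was higher too (adjusted p = 0.042). The TRAM domain protein Solyc04g080750 was lower, with 0.417, 0.206 and 2.90 CPM in protoplasted roots, against 18.9, 40.6 and 73.6 CPM in whole roots (log2 fold change -5.15, standard error 0.80, adjusted p = 0.002), and -7.09 without protoplasted replicate 3, where 3 protoplasted counts were left. A tRNA thiolation protein, Solyc01g095530, which modifies the anticodon of transfer RNAs, had a log2 fold change of -5.13, and poly(A) polymerase Solyc01g058260 one of -2.61.

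Members of unknown or unplaced function were lower in 7 of 10 tested. The rubber elongation factor protein Solyc05g015390, of a family known from rubber particles of the rubber tree and from lipid droplets, had 46.5, 127 and 208 CPM in protoplasted roots, against 1130.3, 1547 and 2028 CPM in whole roots (log2 fold change -3.62, standard error 0.52, adjusted p = 0.0014). Leaving out protoplasted replicate 3 gave -4.21. The Hop-interacting protein Solyc01g010750 had 275, 394 and 517 CPM in protoplasted roots, against 538, 703 and 1169.9 CPM in whole roots (log2 fold change -1.02, standard error 0.34, adjusted p = 0.044). Both genes had groups that did not overlap, but the call on Solyc01g010750 was lost without protoplasted replicate 1 or 2 or whole-root replicate 2 or 3, with an adjusted p of 0.077 to 0.131. The yippee-like protein Solyc03g115970 was the single tested member with no count in any protoplasted library. It had 12.6, 2.66 and 6.57 CPM in whole roots, which puts it at least 37.3-fold lower in protoplasted roots when 3 counts over the group are taken as the limit. Of its 133 whole-root counts 79 lay in replicate 1, and without that library its fitted log2 fold change, which depends on the prior count, was -7.65 against -8.34 with all libraries. Neighbouring loci of unknown function, Solyc01g100750 and Solyc01g100760, had log2 fold changes of -5.55 and -5.65, and the second was -6.40 without protoplasted replicate 3.

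The 22 members that were not called spanned a log2 fold change of -1.02 to 1.48. Of these, 15 lay below 0 and 7 above, and 10 had an unadjusted p under 0.05. With the replicate number as a block, 10 of the 22 were lower and 1 was higher, and no call was lost. The glycosyltransferase Solyc09g092480 had the widest error, with 10.4, 5.55 and 3.62 CPM in protoplasted roots, against 6.87, 0 and 0 CPM in whole roots (log2 fold change 1.48, standard error 1.21, adjusted p = 0.37). Its groups overlapped, and its counts were not whole in 4 libraries. Without whole-root replicate 1 it was higher in the edgeR test (log2 fold change 8.14, adjusted p = 0.0034). That fitted value has no whole-root count left and depends on the prior count. The 3 higher members did not stand alike across fits, since 4 members were higher with the block, 0 without protoplasted replicate 2 (2 at an unadjusted p under 0.05) and 1 each, the kinase Solyc06g082440, without protoplasted replicate 3, whole-root replicate 2 or whole-root replicate 3.

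**Figure D4:**
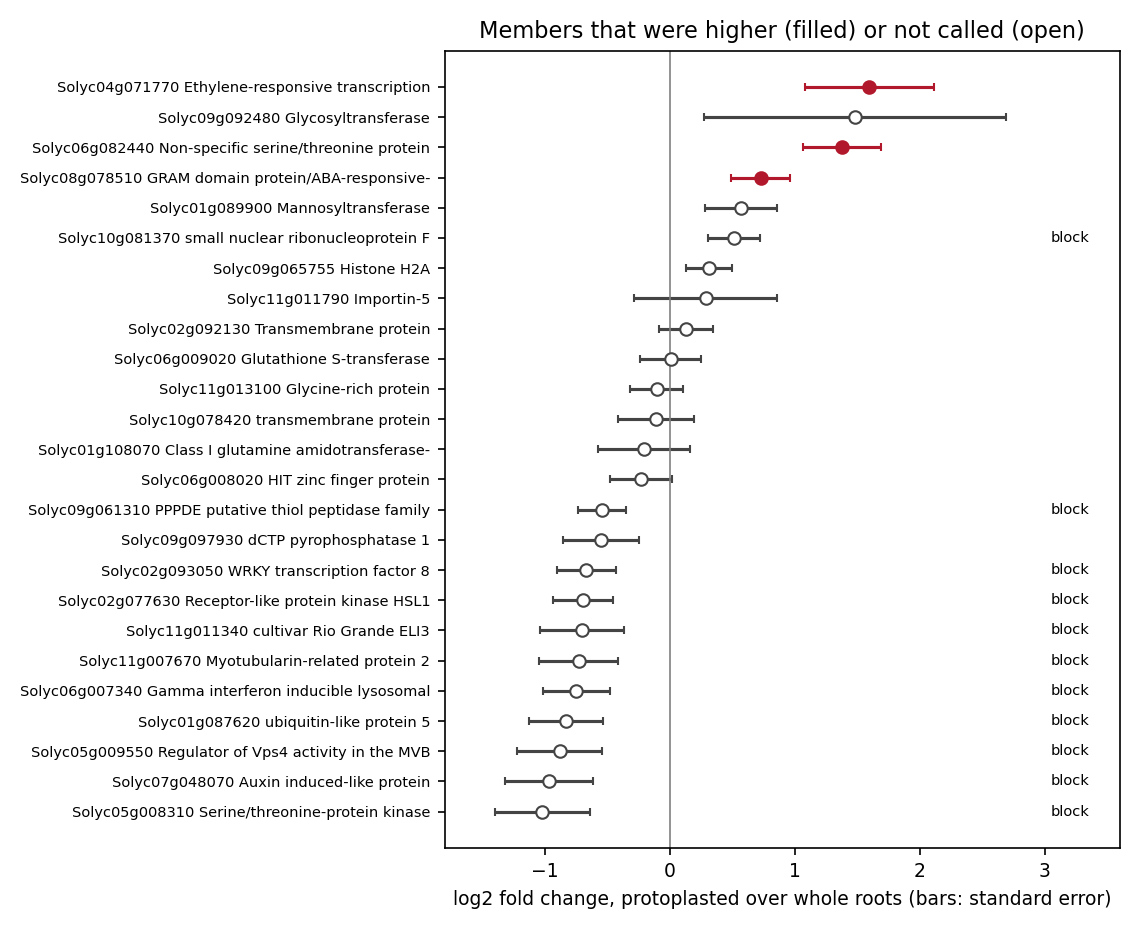
Log2 fold change, protoplasted over whole roots, with its standard error for the 3 higher members (red) and the 22 members not called (open). The word block marks the 11 that passed the test once the replicate number entered the fit, 10 of them lower and 1 higher.

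The 19 members in the table that were too low to test mostly had fewer counts in protoplasted roots. None of them passed the filter, so no test was made. In 17 the mean CPM of protoplasted roots was below that of whole roots, 11 had no count in any protoplasted library, and 1 of those 11 had no count in any library. The highest total was 206 counts over the 3 whole-root libraries, in the hydroxyproline-rich glycoprotein Solyc04g014280, which had 0, 0 and 0.181 CPM in protoplasted roots, against 0.639, 2.66 and 32.1 CPM in whole roots. Nearly all of it lay in whole-root replicate 3. Others rest on few counts, such as Solyc01g087280 with 3, all in whole-root replicate 1. The matching shares among all genes too low to test were not computed, so these counts cannot be set against a background.

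Replicates of protoplasted roots differed in how much of these transcripts they held. Relative to the whole-root mean of each gene, the 85 lower members stood at a median of 2.11%, 4.75% and 6.53% in protoplasted replicates 1, 2 and 3 and at 72.1%, 91.6% and 129% in whole-root replicates 1, 2 and 3. These members were picked as lower in the same libraries, so low protoplasted percentages follow from that choice. Of the 85, 26 reached the filter's 1.77 CPM in all 3 protoplasted libraries. Protoplasted replicate 3 was the highest of its group in 78 of the 110 tested members and whole-root replicate 3 in 69, and the matching shares over all genes tested were not computed. The same libraries held the highest shares of the named suberin list within their groups, 0.00639% and 0.334%. No count was found for 33, 31 and 15 of the 129 members in the protoplasted libraries and for 2, 3 and 4 in the whole-root libraries. The share of all gene models without a count in each library was not computed.

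Leaving out protoplasted replicate 3 moved 42 of the 88 called members by more than 1.5-fold, all of them to a lower log2 fold change. In 10 of the 110 tested members every protoplasted count lay in that library, so their fitted values without it rest on the prior count. Leaving out any other library moved between 0 and 7 of them by as much. In none of these fits did a called member change sign.

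**Figure D5:**
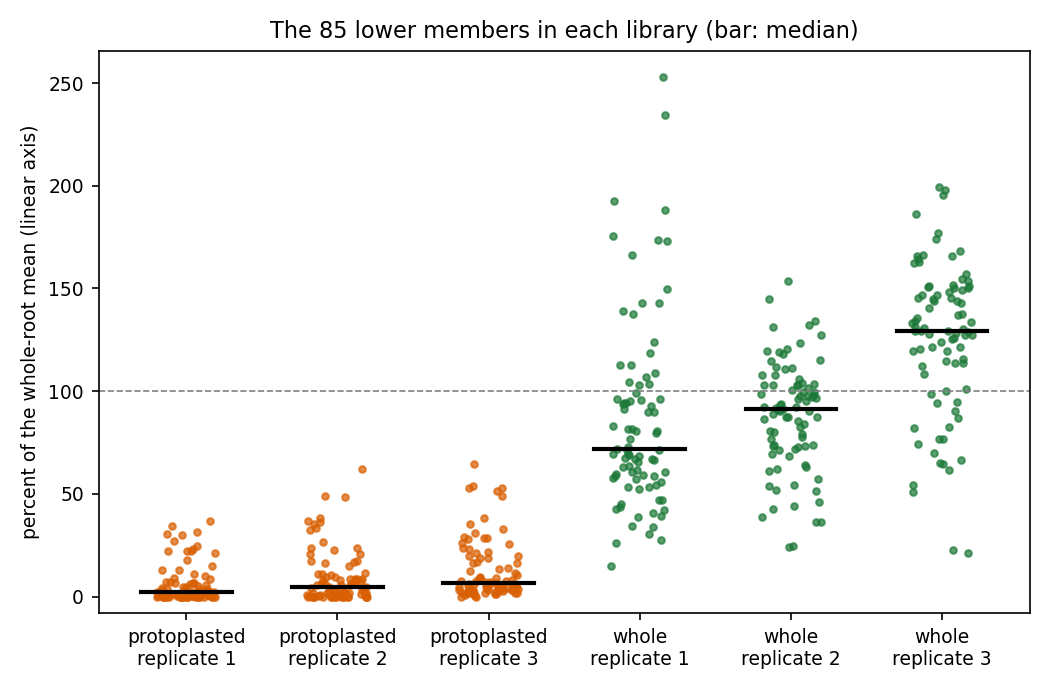
Each of the 85 lower members in each library as a percentage of its mean over the 3 whole-root libraries (points, linear axis), with the median as a bar. The medians are 2.11%, 4.75% and 6.53% in protoplasted replicates 1 to 3 and 72.1%, 91.6% and 129% in whole-root replicates 1 to 3. The members were picked as lower in these libraries, so low protoplasted percentages follow from that choice.

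The module table marks 32 of the 145 members as raised in fruit of DCRi lines, in which the fruit surface becomes suberized, a mark that comes from another experiment. Of these, 28 were tested, 25 were lower and 1, the kinase Solyc06g082440, was higher, with a median log2 fold change of -4.93. Among 82 tested members without the mark, 60 were lower and 2 were higher, with a median of -3.09. Over all 15966 genes tested, 18.7% were lower and 17% were higher. Both sets hold members that reached the filter's 1.77 CPM in no protoplasted library and so had to be lower. Whether the marked members differ from the rest was not tested.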

How the data were processed

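Per the labels and the study's methods, the authors trimmed reads of 3′ libraries with Trim Galore 0.6.6, pseudo-aligned read 1 with kallisto 0.46.2 to the ITAG4.1 transcripts and deposited estimated counts per gene model, without normalization. Kallisto divides reads that match several transcripts, so genes with near-identical copies are uncertain, and 7.58% of the values above 0 were not whole (tolerance 1e-06). No molecular identifiers are described, so intervals cover counting error only. The labels do not say whether replicates came from separate cultures, so p-values measure the spread between these libraries. Within a group, counts of any pair of libraries differed by more than counting noise (chi-square divided by its degrees of freedom, 14.7 or more).

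Estimated counts were rounded, filtered with filterByExpr (minimum count 10, total 15), normalized by TMM and put through edgeR 4.0.16 (R 4.3.3), using the quasi-likelihood test without a replicate block, over 15966 genes. The script was tested on simulated data. Alternatives were DESeq2 1.42.0, limma-voom (limma 3.58.1), other normalizations and filters, a replicate block, a stricter threshold and each library left out in turn. Libraries with the same number deviated together from their group means (correlations of 0.429, 0.114 and 0.538 for replicates 1, 2 and 3), though least in replicate 2. The study's methods describe no block, and the main fit has none, so its p-values leave out any pairing. Calls with the replicate number as a block are given as an alternative.

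Members and lists were chosen with earlier results of these data known. Members were matched by the locus identifier before the first dot, grouped by the module table's descriptions, and have no test as a list. Within each group the 2 tested members with the highest mean CPM and the 1 with the lowest log2 fold change were named, and over all members every higher one, the 5 uncalled and the 10 tested with the highest mean CPM. Further members were named after their values were seen. Where a named and tested member had 0 counts in a group, the fold was computed against 3 counts over the group (0.198 CPM in protoplasted roots). Where such a member had 1 to 3 counts, an exact 95% interval is given. The reference table matched 0 locus identifiers, so no coordinates or sequences are given.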

Additional observations from a re-analysis of the deposited data

How the results depend on the processing

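With 15 alternatives, 86 of the 110 tested members kept their call in each one that tested them, while 9 of the 85 lower, 3 of the 3 higher and 12 of the 22 uncalled members changed theirs in at least one. A minimum of 10 counts in every library, which removes genes that fell, left 48 members, with 33 lower, 16 of them past -2, 1 higher and a median log2 fold change of -1.26, where 15.9% of all 12552 genes left were lower and 14.6% higher. The members higher were 1 with library size alone, where the median of all genes shifted to -0.14 and 35.4% of all calls were higher, against 47.6% with TMM. At an adjusted p under 0.01, edgeR called 0 higher members, and DESeq2 and limma-voom 1 each. Without 1 library, the lower members ranged over 79 to 89, those past -2 over 71 to 78, the higher over 0 to 4 and the median over -4.21 to -3.32. With the replicate block 95 members were lower, 4 were higher and the median was -3.78, and beyond the values given in the report it changed no call. Solyc06g009020 turned its sign with DESeq2 (-0.023), RLE size factors (-0.023), library size alone (-0.17), upper-quartile factors (-0.0035), the 10-count minimum (-0.091) and in fits without 1 library (-0.18 to 0.29), and it was called in none of them. The median with members at 3 or fewer protoplasted counts set to 3 counts, chosen after seeing the data, was -3.71, the same as without this step. The step touched 13 members only and could hardly move the median, so it is no check on it. Depth limits the genes with few counts in protoplasted libraries, whose fitted fold changes depend on the prior count.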
